A study of Mus musculus with 8 samples.

Results

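Genes of the mitotic spindle, the kinetochore and condensin were followed in cultured smooth muscle cells of the mouse aorta. The 57 genes were chosen by name, as probe sets whose Entrez identifiers map to a list of mitotic kinases, checkpoint and kinetochore proteins, kinesins, cytokinesis factors and condensin subunits. All 57 were measured, each by 1 probe set, among 24704 genes on 8 Affymetrix arrays. The cells of both groups were cultured in medium with foetal calf serum, exposed to an adenovirus for 24 h and then given 10 µg/ml cholesterol for a further period of 72 h. The 4 arrays labelled as control are titled AdPl after their virus, and the 4 arrays labelled as NFAT5 overexpression are titled AdN5. The comparison asks how NFAT5, a transcription factor of the osmotic stress response, alters transcription in cholesterol-exposed smooth muscle cells. The virus design, the strain of the mice and the origin of the replicates (separate cultures or repeats of 1 culture) have no label, so every p-value reflects the spread between these arrays alone, and that spread may be technical.

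These genes serve cell division. Cyclin-dependent kinase 1 and the Polo and Aurora kinases drive entry into mitosis, condensin compacts the chromosomes, kinetochores couple them to spindle microtubules, the spindle checkpoint delays separation until every chromosome is attached, and kinesins and a contractile ring finish segregation and cytokinesis. Their transcripts accumulate late in the cell cycle and are low in resting cells. In the arterial wall, smooth muscle cells are mostly quiescent and return to the cycle in culture and after injury. In a bulk RNA sample, a change in the share of dividing cells and a change in mitotic RNA per dividing cell cannot be told apart.

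The values are log2 levels made with RMA, a method that corrects background, gives all arrays the same distribution and summarises the probes of each gene, so a shift of all genes in 1 direction cannot be seen. Pairs of arrays correlated at 0.989 to 0.993 across genes. On the second principal component, which held 17.1% of the variance, AdPl replicate 3 and AdN5 replicate 4 lay at the positive end (14.2 and 24.7) and AdN5 replicate 3 at the negative end (-19.5). Markers of smooth muscle were read first. Acta2, smooth muscle actin, stood at 12.04 ± 0.021 (SD, n = 4) in AdPl and 11.74 ± 0.079 (SD, n = 4) in AdN5. Tagln (transgelin) stood at 8.39 ± 0.12 and 8.46 ± 0.033, and Myh11 at 5.32 in both groups. Myocd, the master regulator of the contractile programme, lay below the array median of 3.76 in both groups (3.30 and 3.27). So did Mylk (3.66 and 3.38) and Des (3.73 and 3.71). None of the 12 contractile markers was called in limma, and at an unadjusted p under 0.05 there were 1 higher and 2 lower (6.24% and 6.29% of all genes). Their list means were 6.40 to 6.43 over the AdPl arrays and 6.33 to 6.55 over the AdN5 arrays. Of 12 macrophage markers all were above 0 in AdN5 minus AdPl, 3 were called higher, as were 0.364% of all genes (Adgre1 0.68, Laptm5 0.53 and Cd68 0.52), and 6 were higher at that unadjusted p, with list means of 5.86 to 6.03 over the AdPl arrays and 6.18 to 6.45 over the AdN5 arrays. Of 11 fibroblast or adventitial markers Ly6c1 was called lower (-1.24), as were 0.413% of all genes. Of these 11, 9 were below 0 and 5 lower at that unadjusted p, and the list means were 7.16 to 7.20 and 6.80 to 6.97. Of 11 endothelial markers 0 were called, with 1 higher and 1 lower at that unadjusted p and list means of 4.16 to 4.31 and 4.09 to 4.35.

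Nfat5 itself was not higher in the AdN5 arrays. Its probe set read 7.06, 7.22, 7.11 and 7.25 in AdPl replicates 1 to 4 and 7.06, 6.95, 6.98 and 6.88 in AdN5 replicates 1 to 4. AdN5 replicates 2 to 4 lay below every control and replicate 1 was level with the lowest. The log2 fold change was -0.19 ± 0.078 (SE; adjusted p = 0.360 in limma), and 70 exact two-sided reassignments of the arrays gave a permutation p of 0.0571. The measured transcript goes against the label, and where its probes lie, within or outside the viral sequence, is not given in the sources used here. Every direction below rests on the label AdN5.

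A single mitotic gene rose past the threshold of an adjusted p under 0.05 over all genes. This was Mki67, which encodes the proliferation marker Ki-67, a coat protein of mitotic chromosomes. It stood at 4.87, 4.85, 4.78 and 4.68 in AdPl replicates 1 to 4 and at 5.65, 5.40, 5.19 and 5.40 in AdN5 replicates 1 to 4, so the groups were separate, with AdN5 replicate 3 nearest to the controls. The log2 fold change was 0.61 ± 0.10 (SE; 95% interval 0.38 to 0.84), a 1.53-fold higher level (adjusted p = 0.0329 in limma). The call was lost in 7 of 8 fits that left out 1 array, namely without AdPl replicate 1 (adjusted p = 0.0862), 2 (0.0911), 3 (0.0904) or 4 (0.112) and without AdN5 replicate 1 (0.0714), 2 (0.0915) or 4 (0.0829), and was kept without AdN5 replicate 3 (0.0356). In these 8 fits the log2 fold change of Mki67 ran from 0.53 to 0.69, and 22 to 43 of all genes were called higher. Over all 18 alternatives the adjusted p of Mki67 ran from 0.00746 to 0.175. No member was called lower, and 56 of 57 did not pass. Over all genes 90, or 0.364%, were called higher and 102, or 0.413%, lower.

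Most of the other members leaned the same way without passing. The log2 fold change was above 0 for 50 of 57 members, against 51% of all genes, and its median was 0.25 against 0.0042 over all genes, with members between -0.16 (Smc4) and 0.92 (Nuf2). The groups did not overlap, with AdN5 above, for 13 members (22.8%), as for 4.22% of all genes, and for 0 members with AdN5 below (4.56% of all genes). At an unadjusted p under 0.05, 23 members (40.4%) were higher and 0 lower, against 6.24% and 6.29% of all genes. Without AdN5 replicate 3 the median was 0.15, 46 members were above 0 and 16 were higher at that unadjusted p. Without AdPl replicate 3 and AdN5 replicate 4 together, those 3 values were 0.26, 49 and 21. These shares describe the list, and no test was made on it.

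**Figure D1:**
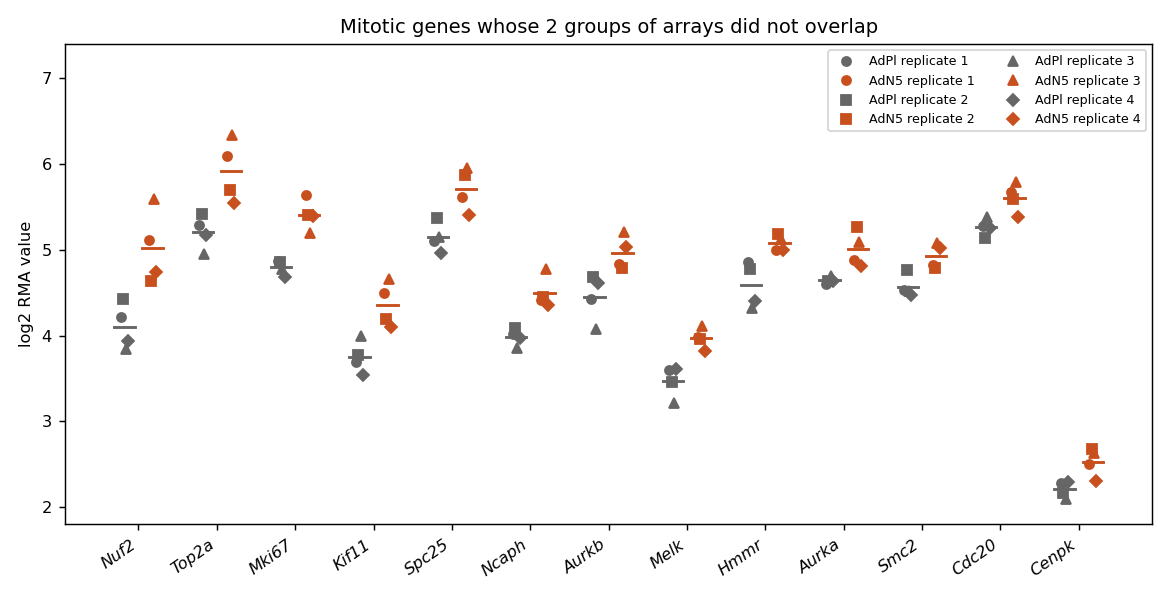
Log2 RMA values (vertical axis) of the 13 mitotic genes whose groups did not overlap, ordered by log2 fold change, with grey symbols for AdPl arrays, orange symbols for AdN5 arrays, a symbol shape per replicate number and bars for group means. Every AdN5 array lies above every AdPl array for each of these genes, and AdN5 replicate 3 (triangle) is the highest value for Nuf2 (5.60) and Top2a (6.34) but the lowest AdN5 value for Mki67 (5.19).

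The promoters of 6 of these 13 genes are shown, 4 with and 2 without the letters known from mitotic promoters. The cell cycle homology region (CHR), bound by the DREAM and MuvB complexes that repress these genes in resting cells and activate them before mitosis, is known by the letters TTTGAA, and TTTAAA and TTCGAA are variants. It often lies near CCAAT boxes, bound by the factor NF-Y. The sequences come from RefSeq, build GRCm38.p6, and cover the 250 bases before the annotated start of transcription, 5′ to 3′ on the strand of the gene, with CHR letters and CCAAT boxes in capitals on either strand (TTCAAA and ATTGG are the reverse strand). They lie at chr7:135716380-135716629, minus strand (Mki67), chr11:99024190-99024439, minus strand (Top2a), chr19:37376132-37376381, plus strand (Kif11), chr4:118437344-118437593, minus strand (Cdc20), chr2:127133955-127134204, minus strand (Ncaph) and chr1:169531465-169531714, minus strand (Nuf2).
Mki67: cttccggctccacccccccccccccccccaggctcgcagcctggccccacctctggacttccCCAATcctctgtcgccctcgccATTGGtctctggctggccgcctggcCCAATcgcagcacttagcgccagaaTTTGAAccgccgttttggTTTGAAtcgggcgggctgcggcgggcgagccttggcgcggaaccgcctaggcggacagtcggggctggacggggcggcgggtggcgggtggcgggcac
Top2a: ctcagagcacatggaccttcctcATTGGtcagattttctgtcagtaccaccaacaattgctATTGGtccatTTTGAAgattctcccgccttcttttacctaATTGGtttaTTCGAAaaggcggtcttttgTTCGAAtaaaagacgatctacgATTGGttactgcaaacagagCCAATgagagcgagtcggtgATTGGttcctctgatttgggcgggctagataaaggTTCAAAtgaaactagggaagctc
Kif11: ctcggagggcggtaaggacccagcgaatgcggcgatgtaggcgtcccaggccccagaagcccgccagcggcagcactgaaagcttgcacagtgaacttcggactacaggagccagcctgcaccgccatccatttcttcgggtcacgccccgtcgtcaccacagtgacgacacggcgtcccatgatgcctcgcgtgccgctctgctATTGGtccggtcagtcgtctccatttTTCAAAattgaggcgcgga
Cdc20: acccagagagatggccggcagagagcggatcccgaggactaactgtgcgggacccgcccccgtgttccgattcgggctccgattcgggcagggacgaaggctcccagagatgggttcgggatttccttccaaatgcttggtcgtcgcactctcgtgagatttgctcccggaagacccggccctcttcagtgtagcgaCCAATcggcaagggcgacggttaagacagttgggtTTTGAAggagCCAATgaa
Ncaph: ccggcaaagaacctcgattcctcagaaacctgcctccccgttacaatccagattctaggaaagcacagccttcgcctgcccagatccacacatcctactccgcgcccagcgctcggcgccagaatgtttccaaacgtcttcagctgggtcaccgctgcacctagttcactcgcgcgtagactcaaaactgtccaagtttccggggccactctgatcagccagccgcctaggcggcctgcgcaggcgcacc
Nuf2: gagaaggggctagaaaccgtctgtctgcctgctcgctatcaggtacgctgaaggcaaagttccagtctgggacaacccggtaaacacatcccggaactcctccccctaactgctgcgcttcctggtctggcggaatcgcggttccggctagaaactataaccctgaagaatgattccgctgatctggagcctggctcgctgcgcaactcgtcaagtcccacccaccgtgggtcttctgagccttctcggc

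In the Mki67 promoter the TTTGAA matches began 116 and 98 bases before the start, downstream of CCAAT boxes at 188, 166 and 141 bases. Top2a, the gene of DNA topoisomerase II alpha, held 4 CHR matches, the nearest 23 bases before the start, and 6 CCAAT boxes. Kif11 had a CHR match at 19 bases and a CCAAT box at 45, and Cdc20 had a CHR match at 18 bases between CCAAT boxes at 53 and 8. The windows of Ncaph and Nuf2, which lay among the largest fold changes, held neither, which says only that these letters are absent there.

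The promoter table, which also covers the 50 bases after the start, matched 49 of the 57 members; the others were Foxm1, Cdc25c, Aurkb, Incenp, Spc24, Kif20a, Tpx2 and Smc4. A gene with several annotated start sites was counted once, as a match if any of them held the letters. On either strand TTTGAA was found for 35 of 49 members (71.4%), against 18.02% of 18383 tested genes. TTTAAA was found in 11 (22.4% against 13.5%) and TTCGAA in 4 (8.16% against 2.08%), so that 40 members (81.6%) held some CHR match, against 29.3%. A CCAAT box stood in 34 (69.4% against 41.9%), and both kinds of match in 32 (65.3% against 12.0%). The E2F letters TTTGGCGC or TTTCGCGC were present in 4 (8.16% against 1.22%), namely Cdk1, Kif15, Kif18a and Ncapd2. TGGAAA, the core of the site that NFAT5 binds, was present in 6 (12.2% against 22.5%), namely Bub1, Cenpa, Cenpn, Kif14, Ncaph and Smc2. As letters, a CCAAT box can share bases with TGGAAA and its end base with a CHR or E2F match. The members were chosen by name as mitotic genes, so these shares describe the list and not the arrays. CHR matches were not more frequent among members whose groups did not overlap (8 of 12, 66.7%) than among the rest (32 of 37, 86.5%), as counts without a test.

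**Figure D2:**
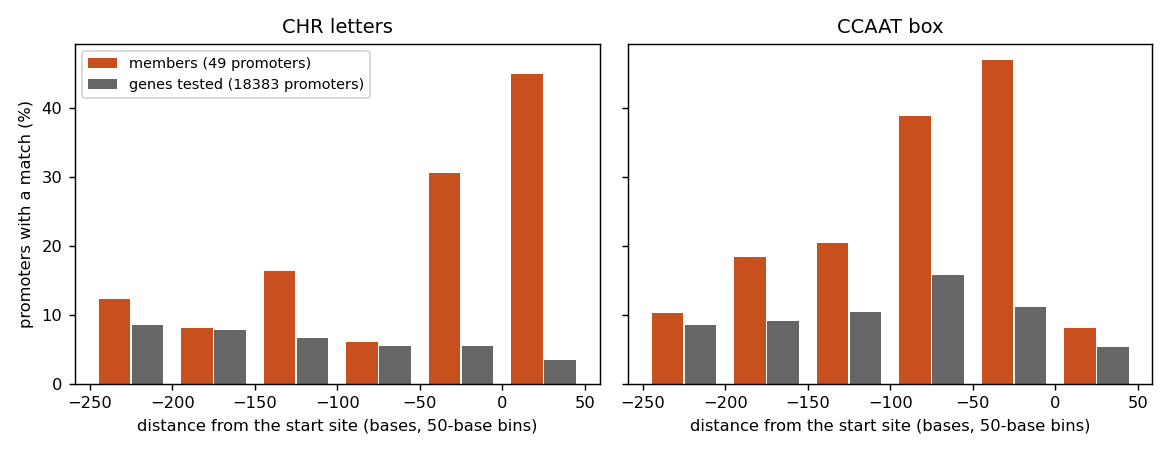
Share of promoters, counted once per gene (vertical axis, percent), with a match beginning in each 50-base bin from the start of transcription (horizontal axis). CHR letters are on the left and CCAAT boxes on the right, with members in orange and all tested genes in grey. CHR matches of members gather from 50 bases before (30.6%) to 50 bases after the start (44.9%), and CCAAT boxes in the 100 bases before it (38.8% and 46.9%).

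The group of kinases and regulators of mitotic entry and exit also held Mki67 and Top2a. All 13 members were above 0 (51% of all genes). Separate groups with AdN5 above were seen for 4 (4.22% of all genes), namely Mki67, Top2a, Melk and Cdc20. Top2a, which untangles sister chromatids, stood at 5.29, 5.42, 4.95 and 5.18 in AdPl replicates 1 to 4 and at 6.10, 5.70, 6.34 and 5.54 in AdN5 replicates 1 to 4. AdN5 replicates 1 and 3 were far above the controls and replicate 4 just above them, and the log2 fold change of 0.71 ± 0.18 (SE) did not pass (adjusted p = 0.130 in limma; 0.0269 when the variance was fitted with a trend and robustly, and up to 0.277 in other alternatives). Melk, a kinase of proliferating cells, had AdPl values of 3.60, 3.46, 3.21 and 3.61 and AdN5 values of 3.98, 3.97, 4.12 and 3.82, a difference of 0.50 ± 0.11 (SE) with an adjusted p of 0.0870 in limma. Cdc20, the activator of the anaphase-promoting complex, ran from 5.13 to 5.38 in AdPl and from 5.381 to 5.79 in AdN5, so that its groups were barely separate (0.35, adjusted p = 0.191 in limma).

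For Cdk1 and Plk1 the difference was smaller than the SD of the AdN5 arrays. Cdk1, the kinase that starts mitosis, read 5.79, 5.92, 5.63 and 5.75 in AdPl and 6.08, 5.87, 6.25 and 5.68 in AdN5. AdN5 replicates 2 and 4 lay inside the control range, and the difference was 0.20 with a 95% interval from -0.082 to 0.49. Plk1, the Polo kinase of centrosome maturation and spindle assembly, read 5.31, 5.29, 5.05 and 5.12 in AdPl and 5.50, 4.995, 5.62 and 5.21 in AdN5, with AdN5 replicate 2 below every control (0.14, interval -0.17 to 0.45). Plk4, which licenses centriole duplication, differed by 0.29, and Nek2, which separates centrosomes, by 0.12. Cdc25c, the phosphatase that activates Cdk1, was at 0.28 with an unadjusted p of 0.0264. Foxm1, the transcription factor of late cell cycle genes, was at 0.19, with AdPl replicate 2 at 5.59, above all other arrays (4.66 to 5.28). Of the exit factors other than Cdc20, Ube2c, the ubiquitin-conjugating enzyme of the anaphase-promoting complex, was at 0.29. Espl1, which encodes separase, was at 0.13, and the separase inhibitor Pttg1, securin, at 0.038.

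In the spindle checkpoint 4 of 6 genes were above 0 (51% of all genes). An unadjusted p under 0.05 was reached by 3 of them (6.24% of all genes), and 0 were called. Bub1, a checkpoint kinase of the kinetochore, had AdPl values of 2.82, 3.00, 2.83 and 2.68 and AdN5 values of 3.46, 2.93, 3.77 and 3.18. Replicates 1 and 3 of AdN5 stood clear of the controls while replicate 2 lay within them, and the difference was 0.50 ± 0.17 (SE; adjusted p = 0.246 in limma). Its partner Bub1b, the BubR1 gene, was at 0.33 and Mad2l1, which inhibits Cdc20, at 0.31. Sgo1, the shugoshin that protects cohesin at centromeres, was at 0.32 with AdN5 replicate 4 (2.73) below the other AdN5 arrays (3.36 to 3.39). Ttk, the Mps1 kinase, was at -0.021. Bub3, which recruits Bub1 to kinetochores and also serves outside mitosis, was at the low end, with 9.21, 9.30, 9.21 and 9.23 in AdPl and 9.06, 9.06, 9.24 and 9.10 in AdN5. Only AdN5 replicate 3 reached the control range for Bub3 (-0.12, interval -0.29 to 0.044).

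All 5 genes of the chromosomal passenger complex and the Aurora kinases were above 0 (51% of all genes). Aurka and Aurkb had separate groups with AdN5 above (4.22% of all genes). Aurka, the kinase of spindle poles, varied little among controls (4.61, 4.64, 4.70 and 4.64) and read 4.89, 5.27, 5.10 and 4.81 in AdN5, a difference of 0.37 ± 0.10 (SE; adjusted p = 0.178 in limma). Aurkb, the kinase of the passenger complex, stood at 4.42, 4.69, 4.08 and 4.62 in AdPl and at 4.84, 4.79, 5.21 and 5.04 in AdN5 (0.52 ± 0.15). Birc5, which encodes survivin, had the largest difference of this group but overlapping arrays. Its AdPl values were 3.04, 2.58, 2.55 and 2.60 and its AdN5 values 3.58, 2.98, 3.84 and 2.76, so AdN5 replicates 2 and 4 lay below AdPl replicate 1 (0.60 ± 0.23, adjusted p = 0.319 in limma). The scaffold gene Incenp was at the low end with 0.087 (4.79, 4.57, 4.77 and 4.43 against 4.81, 4.77, 4.55 and 4.77), and Cdca8, the borealin gene, was at 0.15.

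The kinetochore group held the largest difference of all 57 genes. Nuf2, a microtubule-binding subunit of the Ndc80 complex, read 4.21, 4.43, 3.85 and 3.94 in AdPl and 5.12, 4.64, 5.60 and 4.74 in AdN5. Its AdN5 arrays spread over a wide range, with replicate 3 highest and replicate 2 close to the controls, and the difference of 0.92 ± 0.21 (SE), or 1.89-fold, did not pass (adjusted p = 0.105 in limma; 0.0486 among genes above the median level, and 0.0197 to 0.261 over all alternatives). Spc25, another subunit of that complex, stood at 5.10, 5.38, 5.15 and 4.96 in AdPl and at 5.62, 5.88, 5.95 and 5.41 in AdN5 (0.57 ± 0.14, adjusted p = 0.118 in limma, and 0.0251 to 0.271 over the alternatives). Their partners Ndc80 (0.17, interval -0.084 to 0.42) and Spc24 (0.14, interval -0.20 to 0.47) had smaller differences and overlapping groups. The 4 genes of this complex therefore gave values from 0.14 to 0.92, and differences between genes were not tested.

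Of the remaining kinetochore genes, Cenpk, of the constitutive centromere network, had separate groups at a low level (2.10 to 2.297 in AdPl and 2.301 to 2.67 in AdN5; 0.32, adjusted p = 0.227 in limma). Knl1, the platform for checkpoint proteins, was at 0.36, the kinesin gene Cenpe at 0.25 and Cenpn, a reader of centromeric nucleosomes, at 0.17. Cenpf, a large protein of the outer kinetochore, was at 0.060. Cenpa, the histone variant that marks centromeres, had the smallest value of the group, with 3.92, 4.10, 3.92 and 3.82 in AdPl and 3.93, 3.99, 3.92 and 4.10 in AdN5 (0.049, interval -0.14 to 0.24).

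Among the kinesins 8 of 10 were above 0 (51% of all genes), and Kif11 alone had separate groups (4.22% of all genes with AdN5 above). Kif11, the motor that pushes spindle poles apart, read 3.70, 3.77, 3.99 and 3.54 in AdPl and 4.50, 4.19, 4.66 and 4.10 in AdN5 (0.61 ± 0.14, adjusted p = 0.107 in limma; 0.0462 among genes above the median level, and 0.0389 to 0.251 over all alternatives). Kif15, which can act beside Kif11 in spindle assembly, was at 0.35, and Kif14, a cytokinesis motor, at 0.41, both at an unadjusted p under 0.05. Kif20b (0.25), Kif23 of the central spindle (0.17), Kif20a (0.15), the microtubule depolymerase Kif2c (0.11) and Kif18a (0.024), which dampens chromosome oscillation, had overlapping groups. Kif22, a chromosome arm motor, had the largest spread of the kinesins among AdN5 arrays, at 4.73, 3.99, 4.79 and 3.71 (SD 0.54), and was at -0.053. Kif4, a chromosome-bound motor, lay lowest, with 3.62, 3.45, 3.26 and 3.14 in AdPl and 3.24, 3.21, 3.32 and 3.44 in AdN5 (-0.067, interval -0.32 to 0.19).

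For spindle assembly and cytokinesis 6 of 8 genes were above 0 (51% of all genes). Hmmr, a spindle protein also known as a hyaluronan receptor, stood at 4.85, 4.78, 4.32 and 4.41 in AdPl and at 4.999, 5.18, 5.13 and 4.997 in AdN5, where the SD was 0.094 against 0.27 in AdPl (0.49 ± 0.13, adjusted p = 0.154 in limma). Ect2, the exchange factor that activates RhoA at the division plane, was at 0.48 with AdN5 replicate 4 (5.66) within the control range. Tpx2, which targets Aurora A to the spindle, was at 0.30, and both had an unadjusted p under 0.05. Nusap1 (0.27) and Aspm (0.17), both at spindle microtubules, and Racgap1 (0.034), a subunit of the centralspindlin complex, had overlapping groups. Prc1, which bundles the central spindle, was at -0.050 with AdN5 replicate 4 at 3.93, the lowest of 8 arrays. Anln, a scaffold of the contractile ring, had values of 5.54, 5.65, 5.47 and 5.32 in AdPl and 5.52, 5.13, 5.80 and 5.31 in AdN5 (-0.057, interval -0.37 to 0.26).

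The 5 subunits of condensin I ranged from -0.16 to 0.52, with 4 of 5 above 0 (51% of all genes). Ncaph, its kleisin subunit, read 4.02, 4.09, 3.86 and 3.97 in AdPl and 4.42, 4.46, 4.77 and 4.36 in AdN5, and came closest to the threshold of all uncalled members (0.52 ± 0.10, adjusted p = 0.0666 in limma; 0.0463 among genes above the lower quartile, and 0.0225 to 0.222 over all alternatives). Smc2, an ATPase of the complex, was at 0.36 with separate groups, 4.47 to 4.77 against 4.79 to 5.08. Ncapd2 (0.051) and Ncapg (0.039), the HEAT-repeat subunits, had overlapping groups. Smc4, the partner ATPase of Smc2, had the lowest fold change of all 57 members, with 6.90, 6.92, 6.77 and 6.91 in AdPl and 6.61, 6.91, 6.67 and 6.67 in AdN5. AdN5 replicate 2 was within the control range and the other AdN5 arrays below it (-0.16, interval -0.35 to 0.037). Whether the subunits differ from each other was not tested.

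**Figure D3:**
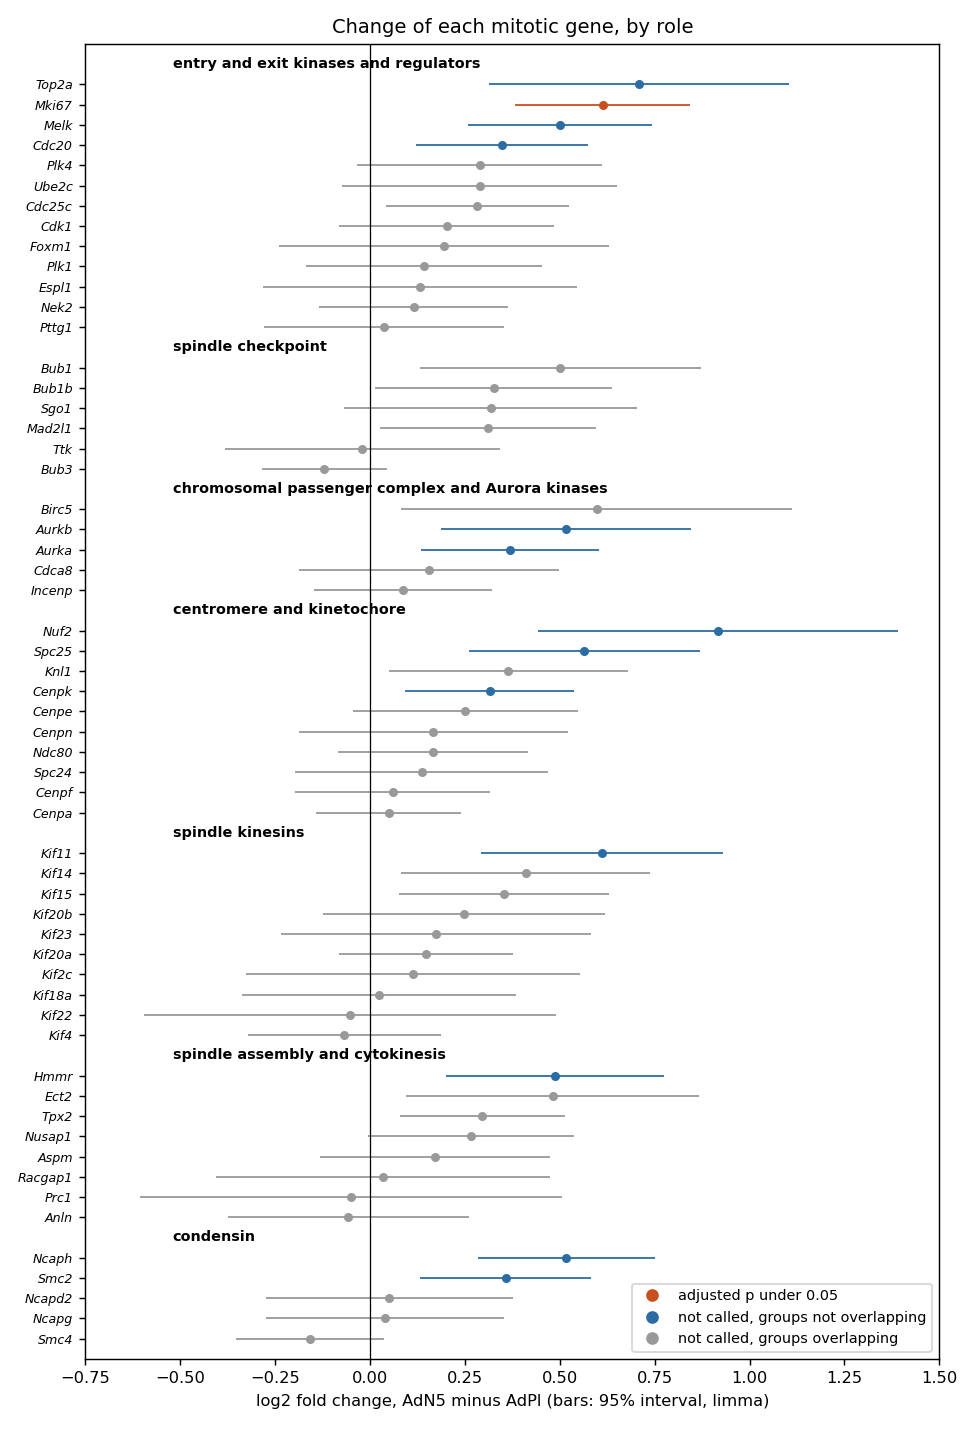
Log2 fold change of each of the 57 genes (horizontal axis, AdN5 minus AdPl) with its 95% interval from limma, grouped by role, in orange for the called gene Mki67, blue for genes with separate groups and grey for the rest. Most points lie right of 0, and 7 genes, from Ttk at -0.021 to Smc4 at -0.16, lie left of it.

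The AdN5 arrays differed among themselves in these genes. As a median over the 57 members, the deviation from each gene's AdPl mean was 0.26, 0.20, 0.45 and 0.12 on AdN5 replicates 1 to 4 and 0.016, 0.16, -0.031 and -0.088 on AdPl replicates 1 to 4. AdN5 replicate 3 was the highest AdN5 array for 36 members and above all controls for 41, while replicate 4 was the lowest AdN5 array for 26 and above all controls for 21. Among controls, replicate 2 was highest for 32 members and its median lay above that of AdN5 replicate 4, so the medians of the groups overlapped. On the same AdN5 arrays the median deviation of the 12 macrophage markers was 0.20, 0.27, 0.55 and 0.27, again highest on replicate 3, and that of 11 fibroblast or adventitial markers -0.17, -0.16, -0.17 and -0.10. The part of these cell types in the mitotic values was not tested.

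**Figure D4:**
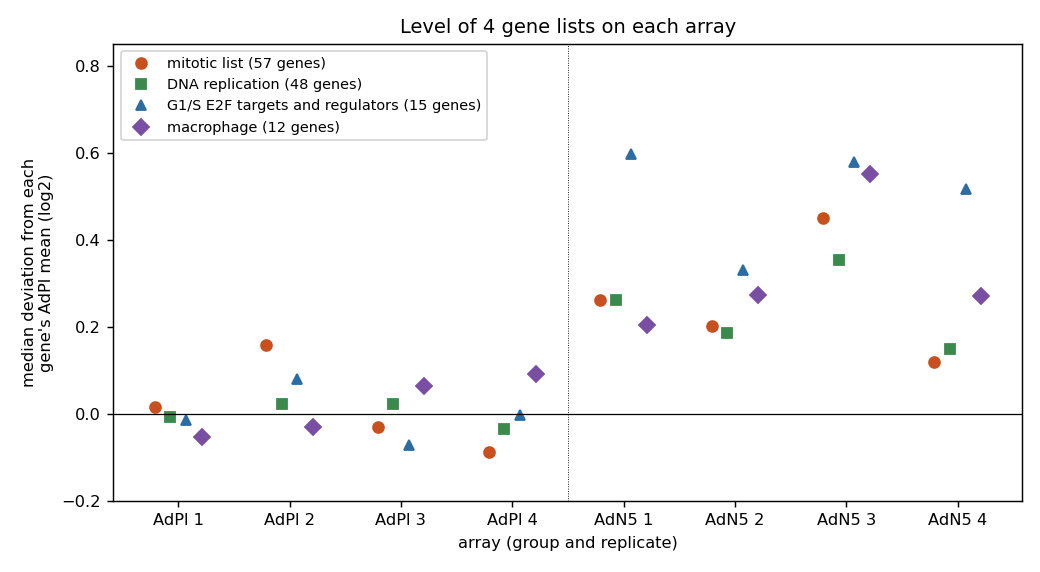
Median deviation of 4 gene lists from each gene's AdPl mean (vertical axis, log2) on each of the 8 arrays (horizontal axis). The mitotic list reaches 0.45 on AdN5 replicate 3 and 0.12 on AdN5 replicate 4, while the G1/S list lies between 0.33 and 0.60 on all AdN5 arrays.

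Other genes of mitosis were taken from 6 further lists with 107 measured genes, and 0 were called in limma, although an unadjusted p under 0.05 was reached by 26 with AdN5 above (6.24% of all genes) and 6 with AdN5 below (6.29% of all genes). Outer and inner kinetochore subunits outside the main list were above 0 for 23 of 27 genes, with a median of 0.18 and 7 with AdN5 above in separate groups (4.22% of all genes), from Oip5, a centromere loading factor (-0.32), to Cenpi (0.47). Other spindle and centrosome genes were above 0 for 24 of 30, with a median of 0.15 and the kinesin gene Kif18b highest (0.56 ± 0.11, adjusted p = 0.0652 in limma) and Nedd1 lowest (-0.10). Regulators of mitotic entry had a median of 0.15 over 16 genes and the widest range. At that unadjusted p 4 of them were higher and 3 lower (6.24% and 6.29% of all genes). Their ends were Mybl2, the B-Myb subunit of the activating MuvB complex (0.60 ± 0.22), and Cks2, a small partner of Cdk1 (-0.81 ± 0.24), whose arrays ran from 3.38 to 4.51 in AdPl and from 2.75 to 3.46 in AdN5 (adjusted p = 0.204 in limma).

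Subunits and regulators of the anaphase-promoting complex were above 0 for 8 of 17 genes, with a median of -0.028. Separate groups were seen for 3 with AdN5 below (4.56% of all genes) and 1 with AdN5 above (4.22% of all genes). Fbxo5, its inhibitor Emi1, was at 0.79 ± 0.15 (3.26 to 3.92 in AdPl, 4.24 to 4.54 in AdN5; adjusted p = 0.0575 in limma) and the subunit gene Cdc23 at -0.20. Cohesin genes were above 0 for 6 of 14, with a median of -0.013, from Sgo2a (-0.22) to Cdca5, which encodes sororin (0.61). The 3 genes of condensin II outside the main list were at 0.19 (Ncapd3), 0.18 (Ncapg2) and -0.069 (Ncaph2).

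Genes of DNA replication and of the G1/S transition, which act before mitosis, included 9 calls. Of 48 DNA replication measured genes 3 were called, 39 were above 0 and 9 had separate groups with AdN5 above (4.22% of all genes), with a median of 0.23. Mcm6 (0.60 ± 0.080, adjusted p = 0.0130 in limma) and Mcm4 (0.57 ± 0.098, adjusted p = 0.0342), subunits of the replicative helicase, had the largest called differences. Of 15 E2F targets and regulators of the G1/S transition 6 were called and 14 above 0, with a median of 0.43, led by E2f8, an atypical E2F (1.31 ± 0.16), and Ccne2, cyclin E2 (0.93 ± 0.14). Calls thus numbered 1 of 57 in the mitotic list, 3 of 48 in the replication list and 6 of 15 in the G1/S list, against 0.364% of all genes called higher. The 9 calls of both replication lists became 3 without AdPl replicate 1, 4 without AdPl replicate 2, 3 or 4, 5 without AdN5 replicate 1, 6 to 8 without another AdN5 array, and 0 with a replicate block. The lists were chosen with earlier results of these data known, and the counts depend on where a gene was placed. Ccna2, cyclin A2 (0.84, adjusted p = 0.0384 in limma), was counted in the G1/S list. The difference between lists was not tested, and the same 8 arrays gave all of them.

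**Figure D5:**
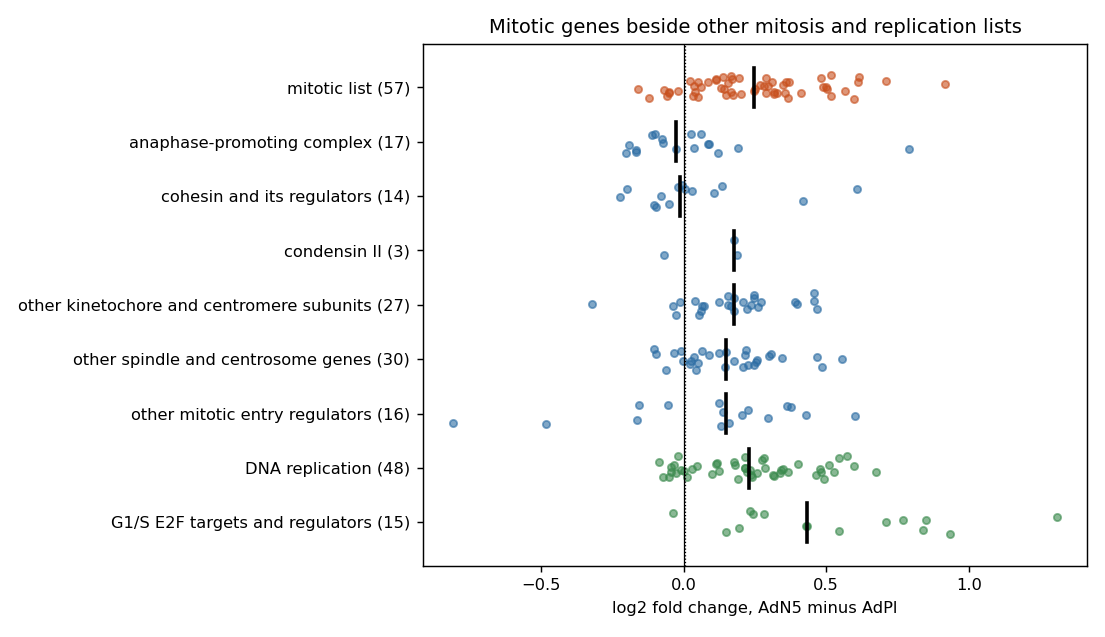
Log2 fold change (horizontal axis, AdN5 minus AdPl) of each measured gene in the mitotic list (orange), in 6 other mitosis lists (blue) and in 2 replication lists (green), with the number of genes in brackets, a black bar for each median and a dotted line at the median of all genes (0.0042). Medians run from -0.028 for the anaphase-promoting complex to 0.43 for G1/S genes, with 0.25 for the mitotic list.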

How the data were processed

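The deposited values are log2 levels per probe set, produced by the authors with RMA (source: the submitters' processing notes); version, probe positions and build: not given in the sources used here. Of 25428 probe sets 24705 had 1 gene symbol and 723 had none; for a symbol with several, the brightest was kept, leaving 24704 genes. Groups came from the titles. AdN5 was compared with AdPl in limma 3.58.1 (R 4.3.3; lmFit and eBayes, two-sided, 8 arrays, no covariates), with Benjamini-Hochberg adjustment over all genes and calls at an adjusted p under 0.05. No filter was applied to dim genes; 17 members lay below the array median of 3.76 in both groups, where RMA compresses differences. The scripts were tested on simulated data. Members, lists and alternatives were chosen with earlier results of these data known. The rule for named genes took Nfat5, every member, and the ends or leading called genes of each other list, with values on every array for Mki67 and for both ends of each role without a call; values per array of further members were added after they were seen. No label says whether replicate numbers pair samples, so the main fit had no pairing. Same-numbered arrays had correlations of -0.079 to 0.055 between their deviations, which cannot settle it. The alternatives were renewed quantile normalisation, median centring, filters on dim genes, single probe sets, a variance trend, array weights, a replicate block, a stricter threshold and left-out arrays. The number of arrays limits the precision; the median standard error of a fold change was 0.11. Figures were drawn with matplotlib 3.10.9.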

Additional observations from a re-analysis of the deposited data

Results flagged for a closer look

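In 7 of 116 groups of 4 arrays (57 members and Nfat5, each in AdPl and AdN5) 1 array stood apart from the other 3 by Dixon's criterion, which chance meets in about 1 of 20 groups. In AdPl these were Foxm1 on replicate 2 (5.59, next value 4.797), Birc5 on replicate 1 (3.04, next value 2.60), Cenpn on replicate 4 (4.59, next value 5.14) and Smc4 on replicate 3 (6.77, next value 6.90). In AdN5 they were Sgo1 on replicate 4 (2.73, next value 3.36), Incenp on replicate 3 (4.55, next value 4.77) and Kif20a on replicate 2 (5.49, next value 5.70). None of these genes was called.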

How the results depend on the processing

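Renewed quantile normalisation, median centring, single probe sets and array weights left 1 mitotic gene called. The count of mitotic genes called higher was 2 of 54 tested among genes above the lower quartile (Mki67 and Ncaph). It was 4 of 39 tested among genes above the median (with Nuf2 and Kif11). When variances were fitted robustly with a trend it was 6 of 57 (with Top2a and Spc25). It was 0 with a replicate block, at an adjusted p under 0.01 and without AdPl replicate 3 and AdN5 replicate 4 together, and 0 to 1 with 1 array left out; 0 were called lower throughout. All genes called higher and lower numbered 128 and 146 above the lower quartile and 236 and 261 above the median. They numbered 360 and 421 with the variance trend, 3 and 11 with the replicate block and 16 and 26 at an adjusted p under 0.01. Without those 2 arrays they numbered 10 and 20, and with 1 array left out 22 to 43 and 34 to 51. In the other mitosis lists 2, 4 and 6 genes were called higher above the lower quartile, above the median and with the variance trend, and 0 to 1 with 1 array left out. In the replication lists (9 called) there were 14 above the median, 0 with the replicate block, 2 at an adjusted p under 0.01, 2 without those 2 arrays and 3 to 8 with 1 array left out. The causes were not tested. The median of the mitotic list ranged from 0.15 to 0.30 with 1 array left out.

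Of the 57 genes 44 kept their sign in all alternatives that tested them. The sign of 12 changed when 1 array was left out, all of them uncalled. Their ranges were Pttg1 -0.089 to 0.13, Ttk -0.11 to 0.10, Cenpf -0.0015 to 0.13, Kif2c -0.041 to 0.25, Kif4 -0.14 to 0.018, Kif18a -0.13 to 0.10, Kif22 -0.21 to 0.14, Prc1 -0.21 to 0.19, Anln -0.18 to 0.046, Racgap1 -0.12 to 0.18, Ncapg -0.063 to 0.13 and Ncapd2 -0.073 to 0.13. Without AdPl replicate 3 and AdN5 replicate 4 together the reversed values were Espl1 -0.019, Kif22 0.17, Prc1 0.035, Ncapg -0.020 and Ncapd2 -0.015.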
